A study of Mus musculus with 11 samples.

Results

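The aquaporins are a family of membrane channels, and 8 of their genes are described here in the rectal mucosa of mice that carry an inducible deletion of integrin α6. The 8 genes, Aqp1, Aqp3, Aqp4, Aqp5, Aqp7, Aqp8, Aqp9 and Aqp11, were taken by their exact symbols in the array's annotation, among 19938 genes measured, and each was read by 1 transcript cluster, a set of probes spread along the transcript. The study used Affymetrix Mouse Gene 1.0 ST arrays, 1 per mouse, on 11 mice aged 10 weeks, and the deposited values are log2 expression levels. Mutant mice (named α6ΔIEC-TAM) given tamoxifen, which is meant to delete Itga6 in their intestinal epithelial cells, numbered 4. A further 4 mutant mice, of the same genotype, were given NaCl by gavage and so were not induced. The control group was 3 mice labelled wild type that received tamoxifen as well. Gavage took place every other day during a period of 5 days and began at 8 weeks of age. The tamoxifen dose was 10 mg per day, and tissue was collected on day 15 after the first gavage. There was 1 male in each mutant group and there were 2 among the controls. No source used here names the promoter that drives the recombinase. Wild-type mice given NaCl were not analysed here, so between the 2 mutant groups the drug and the induced deletion cannot be told apart.

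Aquaporins let water cross a membrane along an osmotic gradient, and some of them, the aquaglyceroporins, also pass glycerol. In the colon and rectum water follows salt that the surface epithelium absorbs. In mice, Aqp8 lies towards the lumen in colonocytes and Aqp4 in their basolateral membrane, while Aqp3 is a basolateral aquaglyceroporin that stratified squamous epithelium also expresses. Aqp1 is typical of endothelium and red blood cells, Aqp7 of fat cells, Aqp5 of gland cells, Aqp9 of liver and white blood cells, and Aqp11 lies inside the cell in the endoplasmic reticulum.

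The targeted gene came out against its label. Itga6 levels were 11.75, 11.93, 11.84 and 11.77 in mutant tamoxifen mice, against 11.39, 11.28, 11.49 and 11.47 in mutant NaCl mice and 11.15, 11.52 and 11.49 in control tamoxifen mice. It was thus higher in the group in which it should be deleted (limma, log2 difference from the control group 0.42, SE 0.096, adjusted p = 0.0095). No source used here places the array's probes relative to the deleted exons, and a probe outside them would check nothing. Mice are therefore named by their labels, and every direction given rests on those labels. Array medians lay between 7.29 and 7.35, and arrays of 1 group correlated at 0.988 or more. The tissue held cells beside the epithelium. The mean level of 8 smooth muscle markers was 12.06 to 12.20 in mutant tamoxifen mice, 12.39 to 12.65 in mutant NaCl mice and 12.56 to 12.65 in control tamoxifen mice. The mean level of 9 stratified squamous markers, which rectal columnar epithelium lacks, ran from 8.16 to 9.55, from 8.23 to 9.37 and from 6.52 to 9.43 in the same order of groups. Nothing in the labels beyond 1 sample per mouse describes how litters or cages were shared.

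In mutant tamoxifen mice Aqp8, Aqp11 and Aqp1 fell and Aqp4 rose, both against control tamoxifen mice and against mutant NaCl mice. Aqp8 was 2.48-fold lower and Aqp4 2.64-fold higher than in control tamoxifen mice. Against that group 1 of 8 aquaporins was higher and 3 were lower in the fit over all genes (limma, two-sided, adjusted p below 0.05), where 24.6% of all genes passed, 12.9% higher and 11.8% lower. Against mutant NaCl mice 1 was higher and 4 were lower, where 23.2% of all genes passed, 12.5% higher and 10.7% lower. Brighter genes passed more often. With the lowest 50% of genes by mean level left out, 40.4% and 40.8% of genes passed in these comparisons. Of the aquaporins 4 were then left, and all 4 passed in each. Lower by at least 1.5-fold against control tamoxifen were 3 of the 8 (1.94% of all genes), and higher by as much was 1 (2.66%). Against mutant NaCl 1 was lower and 1 higher by at least 1.5-fold, each of which 1.68% of all genes were. The median log2 difference of the 8 was -0.10 against control tamoxifen and -0.18 against mutant NaCl, beside -0.023 and -0.0085 over all genes. The comparisons share the mutant tamoxifen arrays. In whole mucosa, fewer cells of a type and less RNA per cell cannot be told apart.

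**Figure D1:**
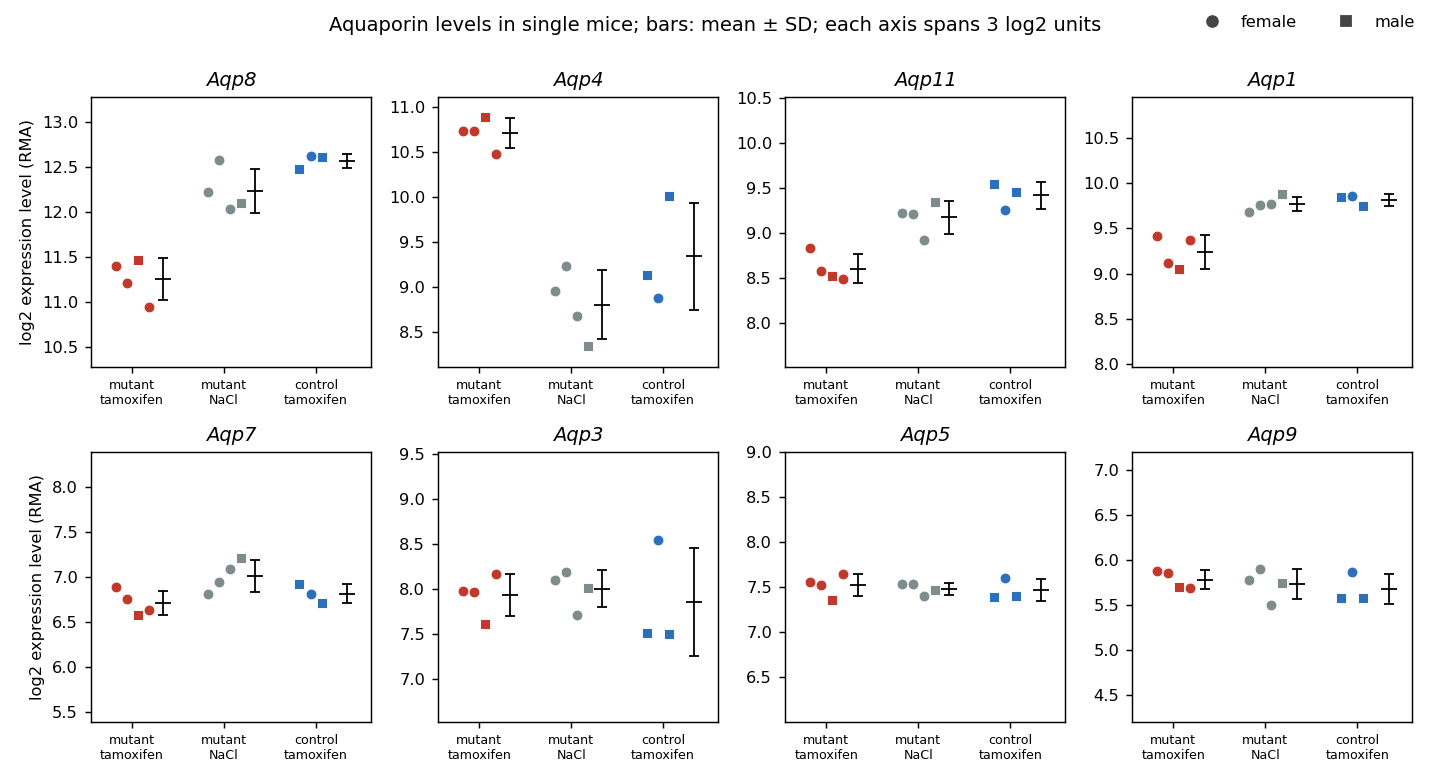
Levels of the 8 aquaporins in single mice, on the log2 scale with each vertical axis spanning the same number of units. Groups run from mutant tamoxifen through mutant NaCl to control tamoxifen, circles are females, squares are males, and bars give the mean ± SD. Aqp8, Aqp11 and Aqp1 are lower, and Aqp4 higher, in all 4 mutant tamoxifen mice than in the 7 others, while Aqp7, Aqp3, Aqp5 and Aqp9 overlap between groups.

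Aqp8 passes water, and hydrogen peroxide and ammonia as well, through the luminal membrane of colonocytes. Its levels were 11.39, 11.21, 11.46 and 10.94 in mutant tamoxifen mice, 12.22, 12.58, 12.03 and 12.10 in mutant NaCl mice and 12.48, 12.61 and 12.61 in control tamoxifen mice. All 4 mutant tamoxifen mice lay below the 7 others, and the lowest of them was a female. The means were 11.25 ± 0.23 (SD, n = 4), 12.23 ± 0.25 (n = 4) and 12.57 ± 0.078 (n = 3). The difference from control tamoxifen was -1.31 (SE 0.15, 95% interval -1.65 to -0.97, adjusted p = 0.000396, limma), and 49 of 19938 genes fell further. Against mutant NaCl it was -0.98 (SE 0.13, 95% interval -1.27 to -0.69, adjusted p = 0.000691, limma), a fold of 1.97. Groups that do not overlap were common here, at 37.4% of all genes against control tamoxifen and 26.8% against mutant NaCl.

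Aqp11 is an intracellular channel, and mice that lack it develop swollen kidney tubule cells. Its levels were 8.84, 8.58, 8.53 and 8.48 in mutant tamoxifen mice, against 9.22, 9.21, 8.92 and 9.35 in mutant NaCl mice and 9.55, 9.25 and 9.46 in control tamoxifen mice. Every mutant tamoxifen mouse lay below all mice of the other groups, although the highest of them came close to the lowest mutant NaCl mouse. Mutant NaCl and control tamoxifen mice overlapped. The gene was 1.7-fold lower than in control tamoxifen mice (limma, log2 difference -0.76, SE 0.12, adjusted p = 0.00151) and 1.48-fold lower than in mutant NaCl mice (limma, log2 difference -0.57, SE 0.10, adjusted p = 0.00315). With female mice alone, 3 against 1, the difference from the control was -0.62 and no longer passed (limma, adjusted p = 0.0646).

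Aqp1 carries water through the walls of small vessels and the red blood cell membrane. Levels were 9.41, 9.11, 9.05 and 9.38 in mutant tamoxifen mice, 9.68, 9.76, 9.77 and 9.88 in mutant NaCl mice and 9.85, 9.87 and 9.74 in control tamoxifen mice. All 4 mutant tamoxifen mice were below the others, and they were spread more widely (SD 0.18) than mutant NaCl (SD 0.082) and control tamoxifen mice (SD 0.065). The gene was 1.52-fold lower than in control tamoxifen mice (limma, log2 difference -0.61, SE 0.098, adjusted p = 0.00189) and 1.45-fold lower than in mutant NaCl mice (limma, log2 difference -0.53, SE 0.085, adjusted p = 0.00166). Among 8 blood endothelium markers 0 passed in either comparison, with a median difference of 0.020 against control tamoxifen and 0.034 against mutant NaCl. Their mean level was 9.02 to 9.22 in mutant tamoxifen mice, 9.01 to 9.16 in mutant NaCl mice and 8.99 to 9.33 in control tamoxifen mice. Of 5 lymphatic endothelium markers measured, 1 rose and 1 fell against control tamoxifen, and 1 rose and 2 fell against mutant NaCl. Lyve1, a hyaluronan receptor of lymphatic vessels and some macrophages, was the lower one in the first case (limma, log2 difference -0.51, adjusted p = 0.0169). The one that rose was Pdpn in both cases, by 0.35 against control tamoxifen and 0.51 against mutant NaCl (limma, adjusted p = 0.0103 and 0.000718). Of 8 red blood cell markers listed, 3 were measured and 0 passed. All 8 smooth muscle markers fell, with a median difference of -0.47 against control tamoxifen and -0.43 against mutant NaCl, and the part of muscle in the fall of Aqp1 was not tested.

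The stretches of genome just before the starts of the 3 genes that fell in both comparisons are given for reference, as RefSeq annotates them on build GRCm38.p6. They are shown because these genes moved together. Such stretches were searched for 7 of the 8 aquaporins, all but Aqp4. The search skipped the entries of a single chromosome, so whether Aqp4 had a stretch to search is not known here. Each covers the 250 bases before the annotated start, printed 5′ to 3′ on the strand of the gene, with matches to the motifs searched in capitals.
Aqp8, chr7:123462044-123462293, plus strand: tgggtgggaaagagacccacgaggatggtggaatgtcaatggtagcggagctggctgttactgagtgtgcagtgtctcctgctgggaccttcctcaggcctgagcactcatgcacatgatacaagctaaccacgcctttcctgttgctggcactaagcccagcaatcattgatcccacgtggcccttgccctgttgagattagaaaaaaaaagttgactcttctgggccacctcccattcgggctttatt
Aqp11, chr7:97738248-97738497, minus strand: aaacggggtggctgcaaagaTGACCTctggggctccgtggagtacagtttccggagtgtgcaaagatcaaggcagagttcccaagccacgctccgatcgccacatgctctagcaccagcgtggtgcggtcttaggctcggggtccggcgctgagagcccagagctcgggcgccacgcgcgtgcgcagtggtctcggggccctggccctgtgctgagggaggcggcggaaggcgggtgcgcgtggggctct
Aqp1, chr6:55336049-55336298, plus strand: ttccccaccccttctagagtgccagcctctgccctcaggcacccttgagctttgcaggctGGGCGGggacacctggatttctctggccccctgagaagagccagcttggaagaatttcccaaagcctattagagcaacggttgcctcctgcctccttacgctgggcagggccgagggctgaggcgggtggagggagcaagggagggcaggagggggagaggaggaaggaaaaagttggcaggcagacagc

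The motifs were searched on both strands, and a match to the oestrogen core below was counted also inside the full element. They were the TATA box (TATAAA), the GC box (GGGCGG), a core sequence of the intestinal CDX factors (TTTATNG), a core of the oestrogen response element (AGGTCA) and the full palindromic oestrogen response element, since tamoxifen binds oestrogen receptors. The Aqp8 stretch held 0 matches to any of them. The Aqp11 stretch held 1 oestrogen core, on the opposite strand and starting 230 bases before the gene, and the Aqp1 stretch held 1 GC box, 190 bases before its gene. Matches were also found before aquaporins that did not pass against control tamoxifen. Aqp7 held 2 oestrogen cores in 1 stretch and 1 in another. Aqp3 held 1 TATA box and 1 GC box, Aqp5 held 2 GC boxes, and Aqp9 held 0 matches. Of 32851 promoter stretches of the same length, 14% held the oestrogen core and 32.7% the GC box. The others were held by 12.4% (TATA box), 9.81% (CDX core) and 0.0639% (full element). The GC content was 52.4% for Aqp8, 67.2% for Aqp11 and 62% for Aqp1.

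Aqp4 is the channel with the fastest water flow of the family and is best known from the end feet of brain astrocytes. Its levels were 10.73, 10.74, 10.88 and 10.48 in mutant tamoxifen mice, 8.95, 9.24, 8.68 and 8.34 in mutant NaCl mice and 9.13, 8.88 and 10.01 in control tamoxifen mice. All 4 mutant tamoxifen mice were above the 7 others, and 1 male control mouse, the third, stood well above the other 2 controls. The means were 10.71 ± 0.17 (SD, n = 4), 8.80 ± 0.38 (n = 4) and 9.34 ± 0.59 (n = 3). Against control tamoxifen the difference was 1.40 (SE 0.28, 95% interval 0.78 to 2.01, adjusted p = 0.00529, limma), and 62 of 19938 genes rose further. Against mutant NaCl it was 1.90 (SE 0.24, 95% interval 1.37 to 2.44, adjusted p = 0.00049, limma), a fold of 3.74, and 22 genes rose further. Without the second control mouse, the only female of that group, the difference from control tamoxifen was 0.99 and did not pass (limma, adjusted p = 0.0649). Without the third it was 1.68.

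Glial cells of the gut wall can also express Aqp4. Of 6 enteric neuron and glia markers measured, 3 fell and 0 rose against control tamoxifen, and 1 fell and 1 rose against mutant NaCl. Those lower than in control tamoxifen mice were Uchl1, Elavl4 and Sox10, a transcription factor of glia. Their log2 differences were -0.49, -0.18 and -0.29 (limma, adjusted p = 0.00145, 0.0183 and 0.0216). Against mutant NaCl Uchl1 fell by 0.39 and Ret rose by 0.21 (limma, adjusted p = 0.00217 and 0.0131), and Sox10 did not pass. The median difference of the list was -0.14 against control tamoxifen and -0.11 against mutant NaCl. Its mean level was 7.27 to 7.38 in mutant tamoxifen mice, 7.34 to 7.44 in mutant NaCl mice and 7.45 to 7.503 in control tamoxifen mice. The part of glia in the level of Aqp4 was not tested.

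**Figure D2:**
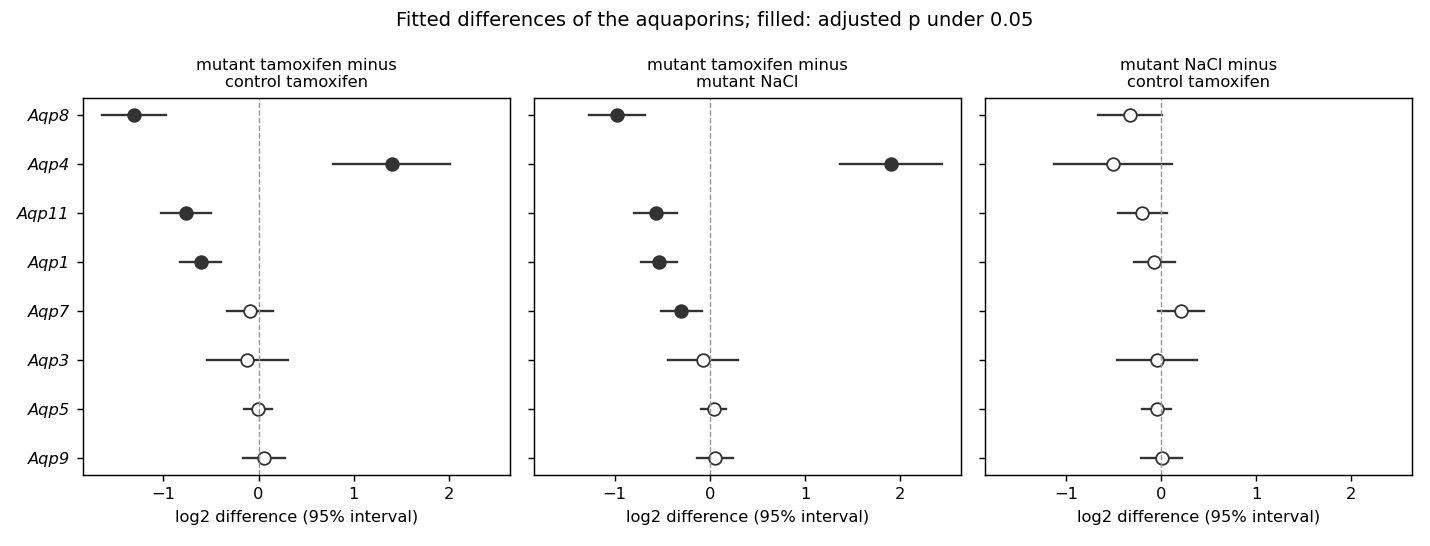
Fitted log2 differences of the 8 aquaporins with their 95% intervals, in a panel for each of the 3 comparisons, and filled points mark adjusted p below 0.05. In the panels of mutant tamoxifen mice Aqp4 is the filled point to the right of 0, at 1.40 and 1.90, and the other filled points lie to the left, and no point is filled for mutant NaCl minus control tamoxifen.

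Aqp7 lets glycerol leave fat cells. Its levels were 6.88, 6.75, 6.57 and 6.63 in mutant tamoxifen mice, 6.80, 6.94, 7.08 and 7.21 in mutant NaCl mice and 6.91, 6.81 and 6.70 in control tamoxifen mice. The groups overlapped in both comparisons. Against mutant NaCl the gene was 1.23-fold lower (limma, log2 difference -0.30, SE 0.096, adjusted p = 0.0466), a call that was lost in 12 of 21 other settings. Against control tamoxifen the difference was -0.09 (95% interval -0.33 to 0.16, limma adjusted p = 0.603). Among 6 adipocyte markers measured 0 passed in either comparison, with median differences of -0.024 against control tamoxifen and -0.14 against mutant NaCl.

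Aqp3 and Aqp5 passed in neither comparison, and both read lowest in the mice with the least squamous marker signal. Aqp3 levels were 7.98, 7.97, 7.61 and 8.17 in mutant tamoxifen mice, 8.10, 8.18, 7.71 and 8.01 in mutant NaCl mice and 7.51, 8.55 and 7.51 in control tamoxifen mice. The female control mouse was the highest of all 11 and the male control mice were the lowest. Aqp5, known from salivary and other glands, had 7.55, 7.52, 7.36 and 7.65 in mutant tamoxifen mice, 7.53, 7.53, 7.39 and 7.46 in mutant NaCl mice and 7.39, 7.60 and 7.40 in control tamoxifen mice. The 4 mice with the lowest mean of squamous markers were replicate 3 of the mutant tamoxifen group (8.16), replicate 3 of the mutant NaCl group (8.23) and replicates 1 and 3 of the control group (6.52 and 7.27). They also held the 4 lowest levels of Aqp3 and the 4 lowest of Aqp5. Of these 4 mice 3 were males, so sex and this marker level overlap. None of 9 squamous markers measured passed in either comparison, with median log2 differences of 1.10 against control tamoxifen and 0.25 against mutant NaCl. Of 6 gland markers 1 rose against control tamoxifen and 1 rose and 1 fell against mutant NaCl, with mean levels of 7.94 to 8.13 in mutant tamoxifen mice, 7.67 to 7.81 in mutant NaCl mice and 7.43 to 7.65 in control tamoxifen mice. The one that rose against control tamoxifen was Ltf, the iron-binding lactoferrin that neutrophils also hold (limma, log2 difference 2.31, adjusted p = 0.00582). Against mutant NaCl Ltf rose by 1.82 and Lpo fell, with a difference of -0.70 (limma, adjusted p = 0.00903 and 0.00621). The median log2 difference of the 6 was 0.097 and 0.017, beside -0.023 and -0.0085 over all genes.

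**Figure D3:**
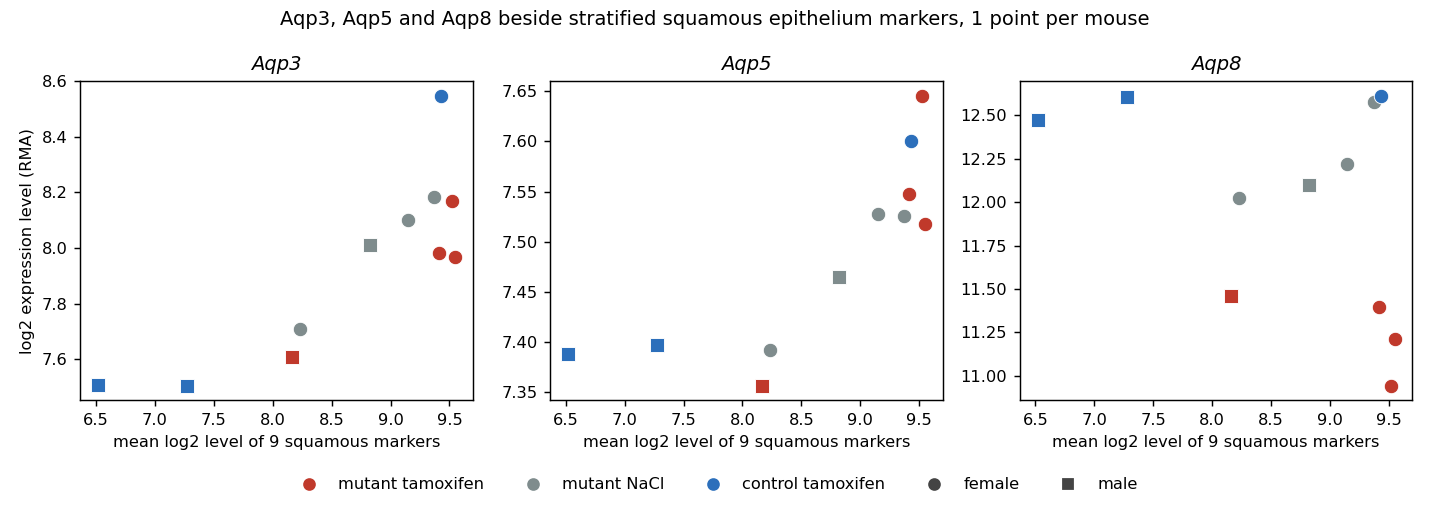
Levels of Aqp3, Aqp5 and Aqp8 in single mice beside the mean log2 level of 9 stratified squamous markers, with colours for groups, circles for females and squares for males. Aqp3 and Aqp5 are lowest in the mice with marker levels of 6.52 to 8.23. Aqp8 is lower in mutant tamoxifen than in mutant NaCl mice, whose marker levels are alike (8.16 to 9.55 and 8.23 to 9.37). Of the control mice, only the female, at 9.43, has a like marker level.

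Between groups Aqp3 differed by -0.12 against control tamoxifen (95% interval -0.54 to 0.31, limma adjusted p = 0.696) and by -0.07 against mutant NaCl (95% interval -0.44 to 0.30, limma adjusted p = 0.814). For Aqp5 the differences were -0.0050 (95% interval -0.16 to 0.15, limma adjusted p = 0.966) and 0.04 (95% interval -0.09 to 0.17, limma adjusted p = 0.697). When the squamous marker level replaced sex in the fit, a setting chosen after the data were seen, Aqp3 was lower than in control tamoxifen mice (limma, log2 difference -0.46, adjusted p = 0.0107) but did not pass against mutant NaCl (limma, log2 difference -0.17, adjusted p = 0.124). Aqp5 passed in neither (limma, adjusted p = 0.405 and 0.895). In that setting Aqp8 differed from control tamoxifen by -1.35, Aqp4 by 1.52, Aqp11 by -0.77 and Aqp1 by -0.64, and each passed.

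Aqp9 takes up glycerol and other small solutes, and neutrophils express it. Its levels were 5.88, 5.86, 5.70 and 5.69 in mutant tamoxifen mice, 5.78, 5.91, 5.51 and 5.75 in mutant NaCl mice and 5.59, 5.87 and 5.58 in control tamoxifen mice. The groups overlapped, and the differences were 0.06 against control tamoxifen (95% interval -0.16 to 0.27, limma adjusted p = 0.721) and 0.05 against mutant NaCl (95% interval -0.14 to 0.24, limma adjusted p = 0.736). In the same mice 7 of 8 neutrophil markers rose in each comparison, with medians of 0.68 and 0.78. Their mean level was 7.65 to 8.00 in mutant tamoxifen mice, 7.02 to 7.12 in mutant NaCl mice and 7.04 to 7.27 in control tamoxifen mice. The table holds no detection call, so whether a low array value such as that of Aqp9 lies above background is not known.

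Mutant NaCl mice, not induced, were set against control tamoxifen mice to see how the groups used for reference differ, and here genotype and drug change together. With limma 0 of 8 aquaporins passed, 0% of all genes did, and at an unadjusted p under 0.05 there were 0 aquaporins and 1622 genes. Aqp8 differed by -0.33 (95% interval -0.67 to 0.0070, limma adjusted p = 0.623) and Aqp4 by -0.50 (95% interval -1.12 to 0.11, limma adjusted p = 0.674). The groups overlapped for all 8 aquaporins, where 8.13% of all genes had none. These intervals reach well below 0, and a p that misses the threshold does not show that the groups are alike.

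The other aquaporins on the array were Mip, Aqp2, Aqp6 and Aqp12. Of these 4, Aqp6 passed against control tamoxifen, where 24.6% of all genes did, and 0 passed against mutant NaCl, where 23.2% did. Aqp6 averaged only 5.41 over all arrays, and whether it lies above background is not known. Its levels were 5.35, 5.39, 5.42 and 5.34 in mutant tamoxifen mice and 5.48, 5.50 and 5.54 in control tamoxifen mice (limma, log2 difference -0.13, SE 0.041, adjusted p = 0.0347), with 5.40, 5.41, 5.35 and 5.30 in mutant NaCl mice. Mip, Aqp2 and Aqp12 differed by 0.04, -0.06 and -0.17 against control tamoxifen and by 0.06, 0.03 and -0.04 against mutant NaCl. In the RefSeq gene table Aqp2, Aqp5 and Aqp6 stand next to each other, and so do Aqp7 and Aqp3, with 0 coding genes between neighbours. None of these neighbours passed in both comparisons.

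Water follows salt in this epithelium. Of 22 salt transport genes measured, 15 fell and 2 rose against control tamoxifen (median log2 difference -0.40), and 15 fell and 1 rose against mutant NaCl (median -0.34). Slc26a3, the luminal chloride-bicarbonate exchanger, differed by -1.67 and -1.54 (limma, adjusted p = 2.65e-06 and 7.92e-07). Slc4a4, a basolateral sodium bicarbonate cotransporter, differed by -2.23 and -2.11 (limma, adjusted p = 2.73e-06 and 9.67e-07). The mean level of the list was 10.74 to 10.85 in mutant tamoxifen mice, 11.32 to 11.40 in mutant NaCl mice and 11.31 to 11.41 in control tamoxifen mice. Of 12 surface colonocyte markers, 5 fell and 3 rose against control tamoxifen, and 6 fell and 3 rose against mutant NaCl, with means of 10.62 to 10.75, 10.86 to 10.99 and 10.88 to 11.06 in the 3 groups. Slc26a3 and Car4 are on both lists, and Car4 differed by -1.24 and -1.27 (limma, adjusted p = 3.28e-06 and 7.92e-07). The median log2 difference of the surface markers was -0.092 against control tamoxifen and -0.24 against mutant NaCl, beside -0.023 and -0.0085 over all genes. Slc26a3 and Car4 weigh more on the mean of this list than Cdhr5 and Ceacam20, the next by p. Those differed by -0.45 and -0.69 against control tamoxifen and by -0.42 and -0.52 against mutant NaCl. The mean of the surface markers was lower where Aqp8 was lower and Aqp4 higher, although 3 of them rose in each comparison. The part of surface colonocytes in either was not tested.

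Of 11 genes of glycerol and triglyceride handling measured, 3 rose and 3 fell against control tamoxifen, and 3 rose and 2 fell against mutant NaCl. Gpd1, which makes glycerol phosphate, was higher by 0.32 and 0.41 (limma, adjusted p = 0.0119 and 0.00155). Plin2, a lipid droplet coat protein, was lower, with log2 differences of -0.73 and -0.50 (limma, adjusted p = 0.000729 and 0.0021). Of 10 osmotic stress genes measured, 1 rose and 2 fell in each comparison, where 24.6% and 23.2% of all genes passed. Their median log2 difference was 0.0080 against control tamoxifen and -0.0065 against mutant NaCl, beside -0.023 and -0.0085 over all genes. Sgk1, a kinase that aldosterone and cell shrinkage induce, differed by -0.69 and -1.18 (limma, adjusted p = 0.037 and 0.00142). Slc6a12, a carrier of the osmolyte betaine, differed by -0.51 and -0.48 (limma, adjusted p = 0.00638 and 0.0045), and Stk39, a kinase that regulates chloride cotransporters, by 0.39 and 0.29 (limma, adjusted p = 0.00385 and 0.00862).

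**Figure D4:**
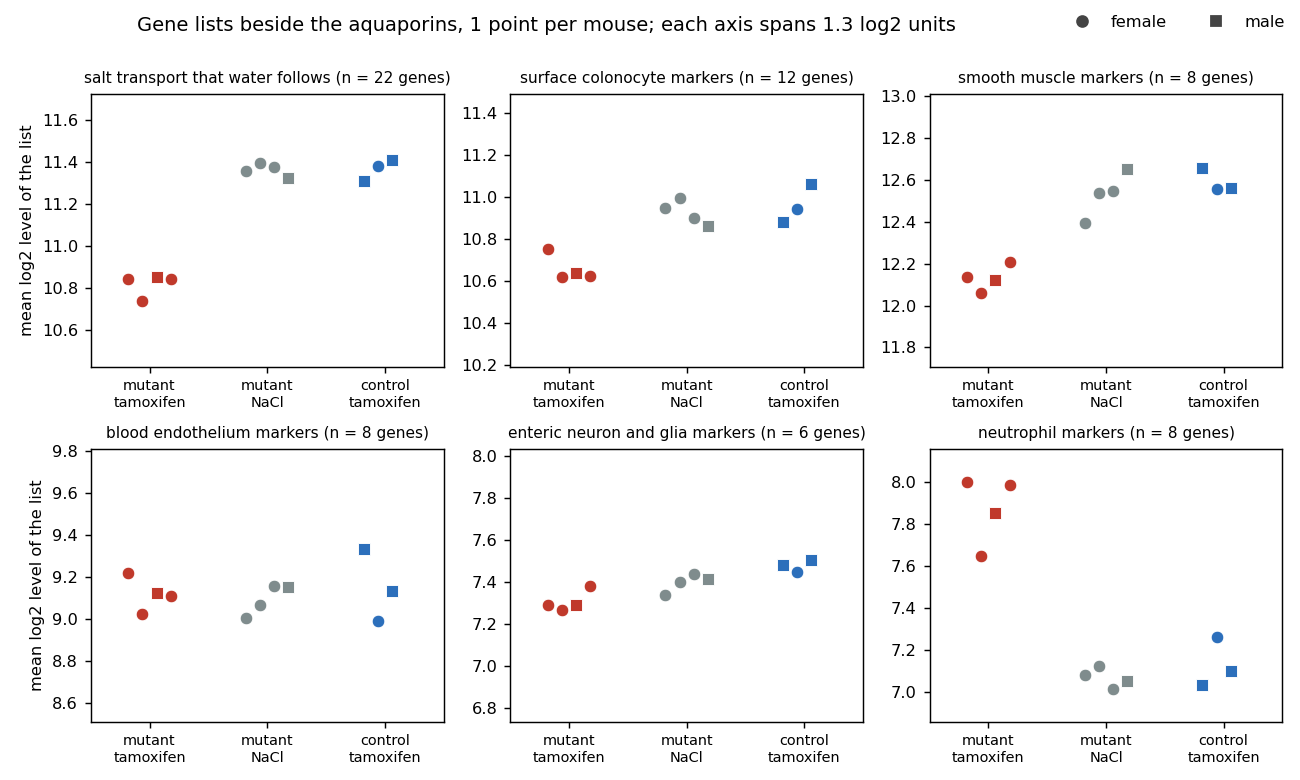
Mean log2 level of 6 gene lists in single mice, on vertical axes that span the same number of units, with circles for females and squares for males. The salt transport, surface colonocyte and smooth muscle lists lie lower in the 4 mutant tamoxifen mice than in the 7 others, neutrophil markers lie higher at 7.65 to 8.00, and blood endothelium markers overlap.

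Genes with the pattern closest to each aquaporin that passed were found as those with the smallest root mean square difference over the 11 arrays, each gene centred on its own mean, among 17027 genes. Closest to Aqp8 were Slc26a2, a sulfate transporter (0.14), Slco2a1, a prostaglandin carrier (0.15), and Vdr, the vitamin D receptor (0.17), while Aqp8 itself varied by 0.58 around its mean. For Aqp11, which varied by 0.37, they were Hdac5, a histone deacetylase (0.078), Fbxo25 (0.091) and Gucy1a1, a subunit of soluble guanylate cyclase (0.10). For Aqp1, which varied by 0.29, they were Myl9, a light chain of smooth muscle myosin (0.075), Ckb, a creatine kinase (0.081), and Smarcd3, a subunit of a chromatin remodelling complex (0.082). For Aqp4, which varied by 0.90, they were Tnfrsf8, which encodes CD30 (0.35), Lgi2 (0.38) and Samd5 (0.43). For Aqp7, which varied by 0.18, the closest were Abcg4 (0.087), Peak1 (0.090) and Trps1 (0.090).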

How the data were processed

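Per the labels and the series design text, the authors read the images with Command Console version 2.0 and made 1 log2 value per transcript cluster and array by RMA in Expression Console version 1.1. Partek is listed as well, per the submitters' processing notes, with no role, and a genome build is not given in the sources used here. The deposited table held 35556 transcript clusters, of which the platform annotation gave 21789 a single symbol and 1621 several. For the 999 genes with several clusters the one with the highest mean was kept, which gave 19938 genes, with no filter on dim ones. All 11 arrays were fitted in limma version 3.58.1 (R version 4.3.3) with group, sex and a variance trend, and p-values were adjusted by Benjamini-Hochberg over all genes at a threshold of 0.05. The fit was also run on simulated arrays with known changes and no sex effect, and nothing given here rests on that run. Differences are fitted, so they can depart from differences of the printed means.

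Groups come from genotype and treatment in the labels, replicate numbers only name mice, and p-values measure the spread between these mice, whose number limits the precision. The members, lists and named genes were chosen with earlier results of these data known. The 8 aquaporins and 4 relatives were named, up to 4 genes with the smallest p per list, and the 3 closest genes per aquaporin that passed. That last search left out other members, predicted genes, antigen and odorant receptor genes and small RNAs. Alternatives were no sex term, females alone, 2 groups alone, filters on dim genes, other scalings, other variance models, all clusters, and each array left out.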

Additional observations from a re-analysis of the deposited data

How the results depend on the processing

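No paired analysis was possible because the labels tie no mouse of 1 group to a mouse of another, and the replicate numbers used here, given in accession order, only name mice. The calls of Aqp8 and Aqp1 in both comparisons with mutant tamoxifen mice, and those of Aqp4 and Aqp11 against mutant NaCl, held under all 22 other settings. Against control tamoxifen, Aqp4 lost its call without control_tamoxifen replicate 2 and Aqp11 with females alone, in 1 of 22 settings each. With arrays left out in turn, the difference from control tamoxifen ran from -1.47 to -1.22 for Aqp8, 0.99 to 1.68 for Aqp4, -0.85 to -0.63 for Aqp11 and -0.65 to -0.49 for Aqp1. The number of aquaporins that passed was 3 to 5 against control tamoxifen, 4 or 5 against mutant NaCl and 0 between mutant NaCl and control tamoxifen over all settings. Aqp7 against mutant NaCl ran from -0.37 to -0.21 with arrays left out and passed in 3 of 11 such fits.

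The differences that turned sign were ones that did not pass in the comparison concerned. With arrays left out, Aqp3 ran from -0.22 to 0.27 against control tamoxifen, -0.21 to 0.11 against mutant NaCl and -0.33 to 0.34 between mutant NaCl and control tamoxifen. Aqp5 ran from -0.033 to 0.038 against control tamoxifen and from -0.0029 to 0.088 against mutant NaCl, and Aqp7 from -0.14 to 0.040 against control tamoxifen. Aqp9 ran from -0.039 to 0.10 against mutant NaCl and from -0.077 to 0.12 between mutant NaCl and control tamoxifen. Without the sex term Aqp3 was 0.078 and Aqp5 0.055 against control tamoxifen, and 0.15 and 0.016 between mutant NaCl and control tamoxifen. With females alone Aqp9 was -0.058 against control tamoxifen, Aqp3 0.041 against mutant NaCl, and Aqp4 0.075 and Aqp9 -0.14 between mutant NaCl and control tamoxifen. Aqp5 against control tamoxifen was 0.031 after a second quantile normalisation. Aqp9 between mutant NaCl and control tamoxifen was -0.0015 with arrays centred on their median, and with the squamous level as a term it was -0.072 against control tamoxifen and -0.088 in that comparison. Aqp9 could not be tested with the lowest 25% of genes left out, and Aqp3, Aqp5, Aqp7 and Aqp9 with the lowest 50% left out. No aquaporin had a further transcript cluster to try in place of its own. The causes were not tested.

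The number of genes that passed against control tamoxifen was 4913, but 1384 with females alone, 2513 without mutant_tamoxifen replicate 3 and 3030 without control_tamoxifen replicate 2. Against mutant NaCl it was 4634. No detection call was given, which limits what can be said of dim genes.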

Other observations

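Markers of 3 further cell types of the mucosa were read in the same mice. Of 7 crypt base and dividing cell markers measured, 4 rose and 1 fell in mutant tamoxifen against control tamoxifen mice (median log2 difference 0.53, beside -0.023 over all genes), and 3 rose and 1 fell against mutant NaCl mice. Top2a, a topoisomerase of dividing cells, was higher than in control tamoxifen mice (limma, log2 difference 0.98, adjusted p = 0.00263). The one that fell against mutant NaCl was Ascl2 (limma, log2 difference -0.50, adjusted p = 0.0116). The mean level of the list was 9.32 to 9.52 in mutant tamoxifen mice, 9.15 to 9.23 in mutant NaCl mice and 8.92 to 9.08 in control tamoxifen mice. Of 7 goblet and deep crypt secretory markers, 3 rose and 2 fell against control tamoxifen and 4 rose and 2 fell against mutant NaCl. Spink4 was higher (limma, log2 differences 0.69 and 0.82, adjusted p = 0.00106 and 0.000159), and Tff3, a trefoil peptide that protects the mucosa, was lower against control tamoxifen (limma, log2 difference -0.60, adjusted p = 0.00167). Of 8 macrophage markers, 2 fell against control tamoxifen and 0 passed against mutant NaCl (median log2 differences -0.26 and -0.13).

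Sex was unevenly spread over the groups. The fitted difference of males from females was -0.47 for Aqp3 (limma, adjusted p = 0.648) and -0.14 for Aqp5 (limma, adjusted p = 0.748). For Aqp8 it was 0.01 and for Aqp4 0.08, with adjusted p of 0.994 and 0.978 (limma).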
